A study of Mus musculus with 15 samples.

Results

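The expression of 10 genes that control transcription of energy metabolism in the heart was followed across 15 expression arrays of mouse hearts. Some hearts were cardiac knockouts of Mnat1. Mnat1 encodes MAT1, a subunit of the kinase module of transcription factor IIH. The genes were Ppargc1a, Ppara, Esrra, Esrrb, Rxra, Rxrb, Rxrg, Thra, Nrip1 and Tfam. They were found as the probe sets that the platform annotation maps to exactly 1 of these symbols, which gave 13 of the 12422 probe sets on the array, and 10 of the 8251 genes that have such a probe set. Esrra, Rxra and Thra had 2 probe sets each.

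Cardiac knockout mice (CKO) were αMHC-Cre+/0; MAT1F/F, with both Mnat1 alleles floxed. Control mice were littermates of the genotype αMHC-Cre+/0; MAT1F/+, which keep 1 wild-type allele. CKO hearts are thus compared with hearts in which 1 allele is floxed too. All mice therefore carried the Cre transgene, and its α-myosin heavy chain promoter is active in cardiac muscle cells, so other cells of the heart keep the gene. The groups were CKO hearts at 4 weeks of age (5 arrays), control hearts at 4 weeks (3 arrays), CKO hearts at 2 weeks (4 arrays) and control hearts at 2 weeks (3 arrays). No label states that each array is a mouse of its own. The p-values therefore measure the spread between arrays, which may be technical.

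Fatty acids are the main fuel of the adult heart, and the switch to them from glucose and lactate takes place around birth and weaning. Ppara and the estrogen-related receptors Esrra and Esrrb are nuclear receptors that bind the promoters of genes for fatty acid oxidation and respiration. The retinoid X receptors Rxra, Rxrb and Rxrg are the obligate partners of PPARs and also pair with thyroid hormone receptors such as Thra. Ppargc1a encodes the coactivator PGC-1α, which docks on these receptors and recruits the transcription machinery, while Nrip1 encodes the corepressor RIP140, which acts against it. Tfam encodes the factor that packages and transcribes mitochondrial DNA.

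The arrays fell into 2 sets by their correlation over all probe sets, which the labels do not mention. Set 1 held 6 arrays and set 2 held 9, and each held arrays of all 4 groups. Arrays of 1 set correlated at 0.937 or more and arrays of different sets at 0.924 or less. Comparisons were fitted without and with array set as block, and values are without it unless stated. Sex, read from Xist and Uty, was female for 4 of the 5 CKO arrays at 4 weeks, against 1 of the 3 control arrays. At 4 weeks every set 1 array read female. In set 2 both control arrays and CKO replicate 5 read male, and CKO replicates 3 and 4 read female. Genotype and sex are thus partly mixed within set 2, and in the 4-week control arrays sex and set cannot be told apart. At 2 weeks 1 of the 4 CKO arrays and 1 of the 3 control arrays read female, and every set 1 array read male. Within set 1 age and sex thus cannot be told apart. Cardiac muscle markers were abundant in every group, as the labelled tissue has them, and 8 of 10 listed markers had a single-symbol probe set. Their summed intensity was 55182.5 to 58995 in CKO hearts at 4 weeks, against 66719 to 69983 in control hearts at 4 weeks. The 10 fibroblast markers summed to 26173 to 34575 in CKO hearts and 11749.5 to 13228 in control hearts at that age. In whole hearts, fewer cells of a type and less RNA per cell cannot be told apart. The 2 Mnat1 probe sets were dim and gave no call (4 weeks: 0.53 ± 0.47, adjusted p = 0.726, and -0.03 ± 0.27, adjusted p = 0.994). Whether their probes fall inside the floxed stretch is unknown here, so Mnat1 does not check the labels.

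Promoter sequence is shown for the 3 genes with a knockout or age difference that passed the test without the block, Rxrg, Esrra and Ppargc1a, to set their sequence beside those values. The Ppargc1a promoter is known to respond to cyclic AMP through the factor CREB, and nuclear receptors bind copies of a short half-site. Each window is RefSeq sequence of the GRCm38.p6 assembly, from 250 bases before to 50 bases after a transcript start, and Rxrg has 2 such starts. Capitals mark the nuclear receptor half-site AGGTCA and the core TGACG of a cyclic AMP response element, on either strand.
Rxrg, chr1:167598112-167598411, plus strand: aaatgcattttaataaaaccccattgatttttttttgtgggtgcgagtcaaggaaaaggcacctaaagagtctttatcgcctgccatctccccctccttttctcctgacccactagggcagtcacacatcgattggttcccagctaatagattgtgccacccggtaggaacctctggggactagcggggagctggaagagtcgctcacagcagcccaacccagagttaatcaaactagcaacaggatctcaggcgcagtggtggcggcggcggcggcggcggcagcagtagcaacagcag
Rxrg, chr1:167618015-167618314, plus strand: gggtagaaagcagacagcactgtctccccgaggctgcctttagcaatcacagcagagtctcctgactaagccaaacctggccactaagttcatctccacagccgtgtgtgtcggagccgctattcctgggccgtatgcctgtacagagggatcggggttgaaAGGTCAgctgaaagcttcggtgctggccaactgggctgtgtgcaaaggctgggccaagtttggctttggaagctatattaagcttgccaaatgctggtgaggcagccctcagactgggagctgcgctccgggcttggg
Esrra, chr19:6921759-6922058, minus strand: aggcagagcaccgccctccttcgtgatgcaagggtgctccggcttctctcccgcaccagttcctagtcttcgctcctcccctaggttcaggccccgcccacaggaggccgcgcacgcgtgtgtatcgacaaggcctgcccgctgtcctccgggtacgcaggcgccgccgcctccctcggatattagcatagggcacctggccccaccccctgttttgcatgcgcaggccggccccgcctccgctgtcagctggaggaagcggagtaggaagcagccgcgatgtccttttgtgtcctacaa
Ppargc1a, chr5:51567676-51567975, minus strand: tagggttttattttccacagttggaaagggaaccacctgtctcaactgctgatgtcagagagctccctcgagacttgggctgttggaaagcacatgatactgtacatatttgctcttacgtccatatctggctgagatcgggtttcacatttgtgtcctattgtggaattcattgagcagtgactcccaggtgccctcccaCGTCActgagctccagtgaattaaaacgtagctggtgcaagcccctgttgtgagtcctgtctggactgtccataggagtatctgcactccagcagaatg

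The second Rxrg start had 1 half-site, at position -88 from the start, and the first had none. The Ppargc1a window held the core of a cyclic AMP response element at position -49 on the opposite strand, and the Esrra window held no match to either motif. Whether the known cyclic AMP response belongs to this Ppargc1a start was not examined. Windows were found for 9 of the 10 genes, 14 in all, and 2 of the 14 held AGGTCA, the second Rxrg start and 1 of the Rxra starts. Among 32851 promoter windows of this length 16.3% held AGGTCA and 20.8% held TGACG. This second motif was in 4 of the 14 windows, those of Ppargc1a, Esrrb, Ppara and Rxrb, so the match is not particular to Ppargc1a. None of the 14 held the longer element TCAAGGTCA bound by estrogen-related receptors, which 0.423% of all windows hold. None held AGGTCANAGGTCA, a direct repeat with 1 base between the copies, which is found in 0.0396%. A match is a description of the letters and does not show that a factor binds there.

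The first comparison asked whether the regulators differ between CKO and control hearts at 4 weeks. Rxrg and 1 of the 2 Esrra probe sets were lower in CKO hearts, and Ppara was lower once the array set was a block. Intensities were compared as log2(intensity + 16), and a probe set was called if its limma p, adjusted by Benjamini-Hochberg over all 12422 probe sets, lay under 0.05. Fold changes on this scale understate changes of dim probe sets. Without the block 2 of the 13 probe sets were called, both lower, where 2.42% of all probe sets were called lower. With the block 3 were called, all lower, where 7.70% of all probe sets were called lower. The median difference of the 13 probe sets was -0.06 (log2), against 0.07 over all probe sets. Of all probe sets called in either direction, 61.5% were higher in CKO hearts, against 47.1% after quantile normalization and 48.9% after median scaling.

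Rxrg, the receptor isoform enriched in striated muscle and brain, had the most negative difference of the 13 probe sets. Its probe set read 105, 119, 92.0, 115 and 134 on the 5 CKO arrays at 4 weeks, against 204, 289 and 371 on the 3 control arrays. Every CKO array lay below every control array. The difference was -1.21 ± 0.19 (log2 ± standard error, 2.31-fold lower; limma adjusted p = 0.00158), and -1.20 ± 0.17 under the array-set block (adjusted p = 8.48e-05). Within set 2, where the 4-week control arrays read male and most CKO arrays female, Rxrg differed by -1.42 (adjusted p = 0.000622). Within set 1, where 2 CKO arrays stand against 1 control array whose spread is assumed to be that of the other groups, it differed by -0.79 (adjusted p = 0.0515). With array set and inferred sex both as blocks the difference was -1.08 (adjusted p = 2.65e-04). Leaving out any 1 of the 15 arrays kept the call, with differences of -1.42 to -1.02.

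Esrra, which activates genes of oxidative phosphorylation together with PGC-1α, was measured by 2 probe sets whose differences had the same sign but unlike sizes. The probe set with the suffix f_at, called Esrra f_at here, read 316, 309, 263, 284 and 355 in CKO hearts at 4 weeks, against 407, 614 and 677 in control hearts, so the groups did not overlap. It fell by 0.83 ± 0.17 on the log2 scale (adjusted p = 0.00715), and by 0.82 ± 0.13 with the block (adjusted p = 3.12e-04). The other Esrra probe set read 816, 882, 666, 859.9 and 857 in CKO hearts, against 961, 979 and 972 in control hearts, again without overlap. Its difference was -0.25 ± 0.12 (adjusted p = 0.331), and -0.25 ± 0.10 with the block (adjusted p = 0.0894). The suffix f_at marks a probe set whose probes can match other sequences of a family, so its signal may not be from Esrra alone. The call of Esrra f_at was lost without control 4 wk replicate 2 (adjusted p = 0.0577) or control 4 wk replicate 3 (adjusted p = 0.0564). Within set 2, where the 4-week control arrays read male and most CKO arrays female, the difference was -1.07 (adjusted p = 0.0011). Within set 1, where all 4-week arrays read female, it was -0.36 against the 1 control array. With array set and inferred sex as blocks it was -0.71 (adjusted p = 8.32e-04).

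Ppara, the lipid-activated receptor of fatty acid oxidation, read 524, 448, 404, 474 and 414 in CKO hearts at 4 weeks and 505, 620.2 and 649 in control hearts. The highest CKO array lay above the lowest control array, and both belong to set 1 and read female. The difference was -0.37 ± 0.15 (adjusted p = 0.208), and Ppara fell by 0.38 ± 0.13 with the block (adjusted p = 0.0414). It was -0.55 within set 2 (adjusted p = 0.0255) and -0.06 within set 1, against its 1 control array, and with inferred sex as a further block it was -0.29 (adjusted p = 0.121). Leaving out 1 array kept the call under the block for 10 of the 15 arrays, with adjusted p between 0.00559 and 0.199.

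Ppargc1a, whose product is the shared coactivator, was dim. Its probe set read 47.3, 45.9, 74.2, 75.6 and 67.3 in CKO hearts at 4 weeks, against 76.5, 83.2 and 105 in control hearts. All CKO arrays were lower, but the nearest pair was 75.6 and 76.5. The difference was -0.43 ± 0.27 (adjusted p = 0.529), and -0.39 ± 0.17 with the block (adjusted p = 0.110). In all, 4 of the 13 probe sets had every CKO array below every control array and 0 had every one above, where 4.71% of all probe sets had every CKO array below. Those 4 were Rxrg, both Esrra probe sets and Ppargc1a.

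The corepressor gene Nrip1 and the thyroid hormone receptor gene Thra had positive differences that were not called. Nrip1 read 337, 269, 627, 536 and 540.1 in CKO hearts at 4 weeks and 251, 359.6 and 417 in control hearts. In both groups the set 1 arrays were the low ones, and the groups overlapped. Its difference was 0.38 ± 0.25 (adjusted p = 0.569 without and 0.155 with the block). The first of the 2 Thra probe sets read 492, 498, 573, 738 and 673 in CKO hearts against 448, 499.5 and 506 in control hearts, a difference of 0.27 ± 0.21 (adjusted p = 0.668 without and 0.0782 with the block). The second Thra probe set differed by 0.06 ± 0.20.

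The other regulators gave no call at 4 weeks. Rxra, the RXR isoform needed for heart development in mice, differed by -0.06 ± 0.14 with its first probe set (95% confidence interval -0.35 to 0.24). Its second probe set, with the suffix g_at, differed by -0.03 ± 0.28. Rxrb differed by -0.03 ± 0.12, with an interval of -0.28 to 0.22. Tfam was dim, at 75.1 to 102 in CKO hearts and 63.3 to 98.6 in control hearts, and differed by 0.06 ± 0.23, with an interval of -0.43 to 0.55. With the block the differences of Tfam, Rxrb, both Rxra probe sets and the second Thra probe set were 0.03, -0.04, -0.07, -0.08 and 0.08. Esrrb read 1095 to 3076 in CKO hearts and 1270.0 to 3037 in control hearts. These values split by array set, and Esrrb read 2732 to 3264 on set 1 arrays and 1095 to 1563 on set 2 arrays whatever the group. With the block its difference was -0.16 ± 0.10 (adjusted p = 0.27). Set 1 arrays were likewise higher for the Rxra g_at probe set, by 1.64 times on average.

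**Figure D1:**
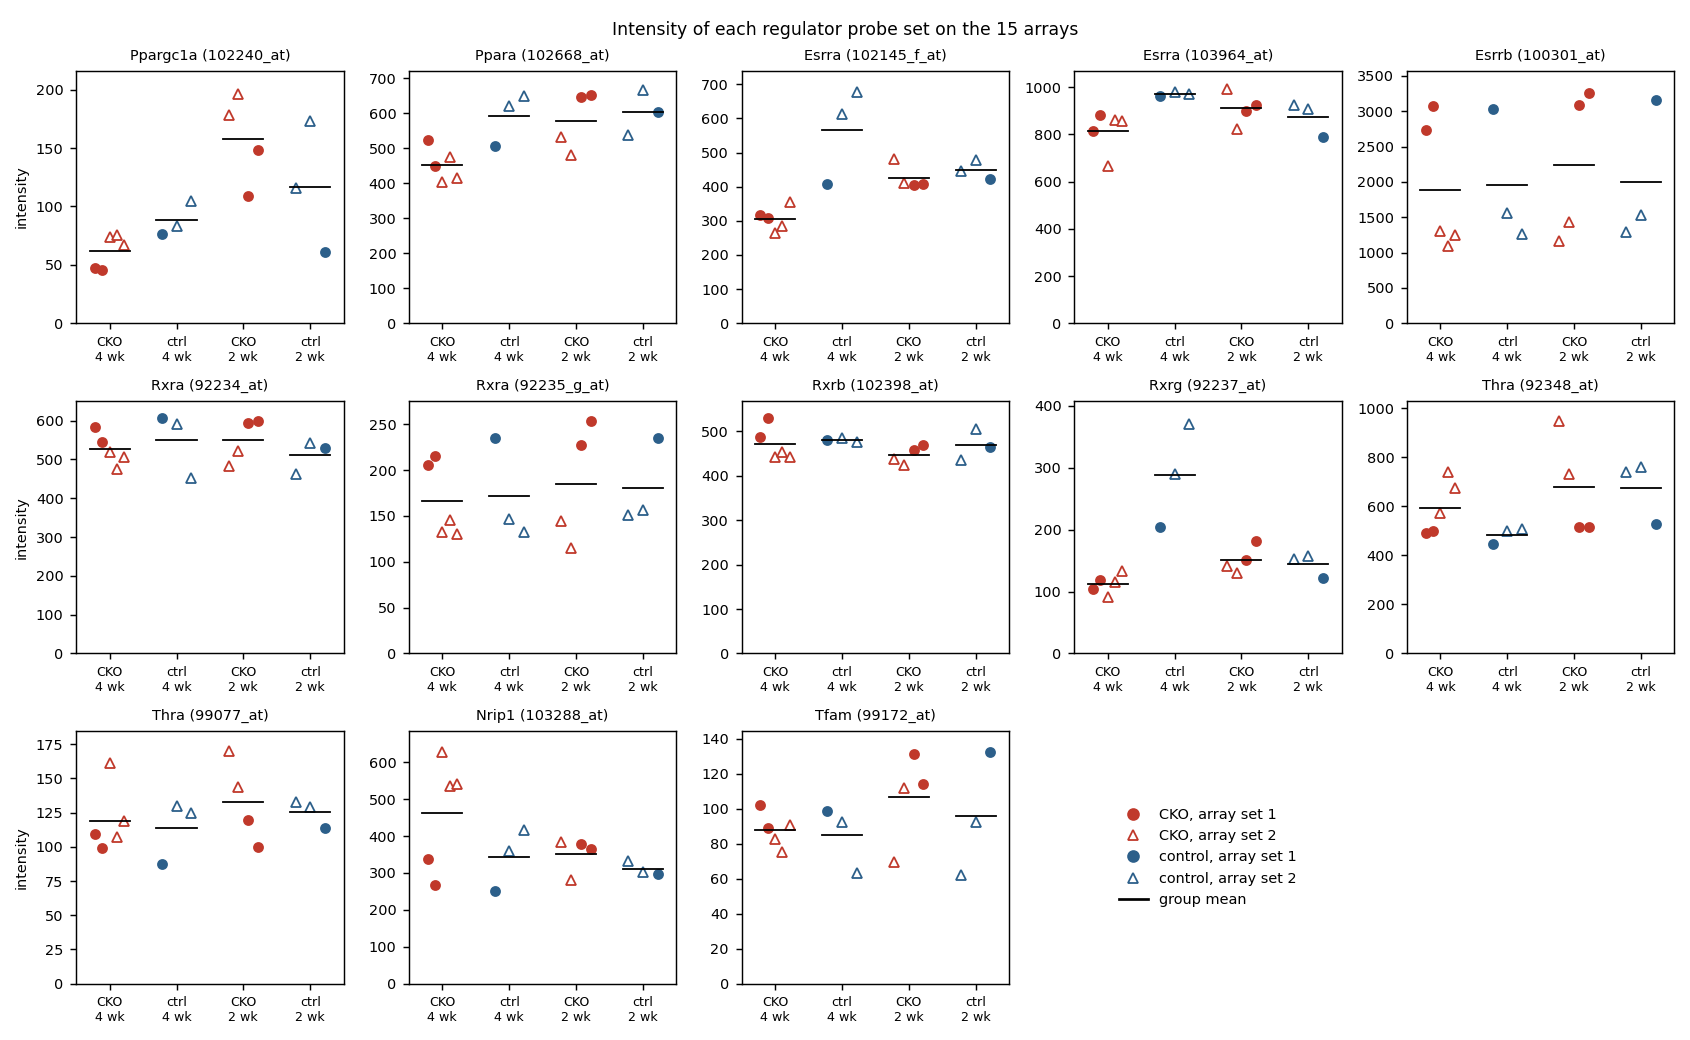
Intensity (linear axis from 0) of each of the 13 regulator probe sets on the 15 arrays, by group (ctrl, control), with red for CKO and blue for control, filled circles for array set 1, open triangles for array set 2 and bars for group means. The 5 CKO arrays at 4 weeks read 92.0 to 134 for Rxrg, below the control arrays at 204 to 371, and Esrrb splits by array set in every group.

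At 2 weeks no regulator differed between CKO and control hearts by the test. limma called 0 of the 13 probe sets without and with the block, where 0.00805% and 0.0564% of all probe sets were called in either direction. At an unadjusted p under 0.05, 0 of the 13 passed without the block and 1 with it, Ppargc1a, where 1.04% and 5.02% of all probe sets passed. Both counts are near the background. Rxrg read 141, 131, 151 and 182 in CKO hearts and 152, 157 and 122 in control hearts, and the groups overlapped. Its difference was 0.06 ± 0.20 (0.08 ± 0.18 with the block), with a 95% interval of -0.37 to 0.49 without the block, which does not reach the size of the difference at 4 weeks. Esrra f_at read 481, 411, 404 and 407 in CKO hearts and 447, 478 and 424 in control hearts, a difference of -0.08 ± 0.17 (-0.05 ± 0.14 with the block). Ppara differed by -0.07 ± 0.16 (-0.08 ± 0.13 with the block), with 531, 479, 646 and 652 in CKO hearts and 537, 667 and 602 in control hearts. Ppargc1a read 178, 197, 109 and 148 in CKO hearts and 116, 173 and 61.3 in control hearts. These groups overlapped, and the difference was 0.45 ± 0.28 without and 0.55 ± 0.17 with the block (adjusted p = 1 and 0.756). At 2 weeks 0 of the 13 probe sets had CKO and control arrays that did not overlap, where 2.25% of all probe sets did, so a count of 0 is near the background.

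**Figure D2:**
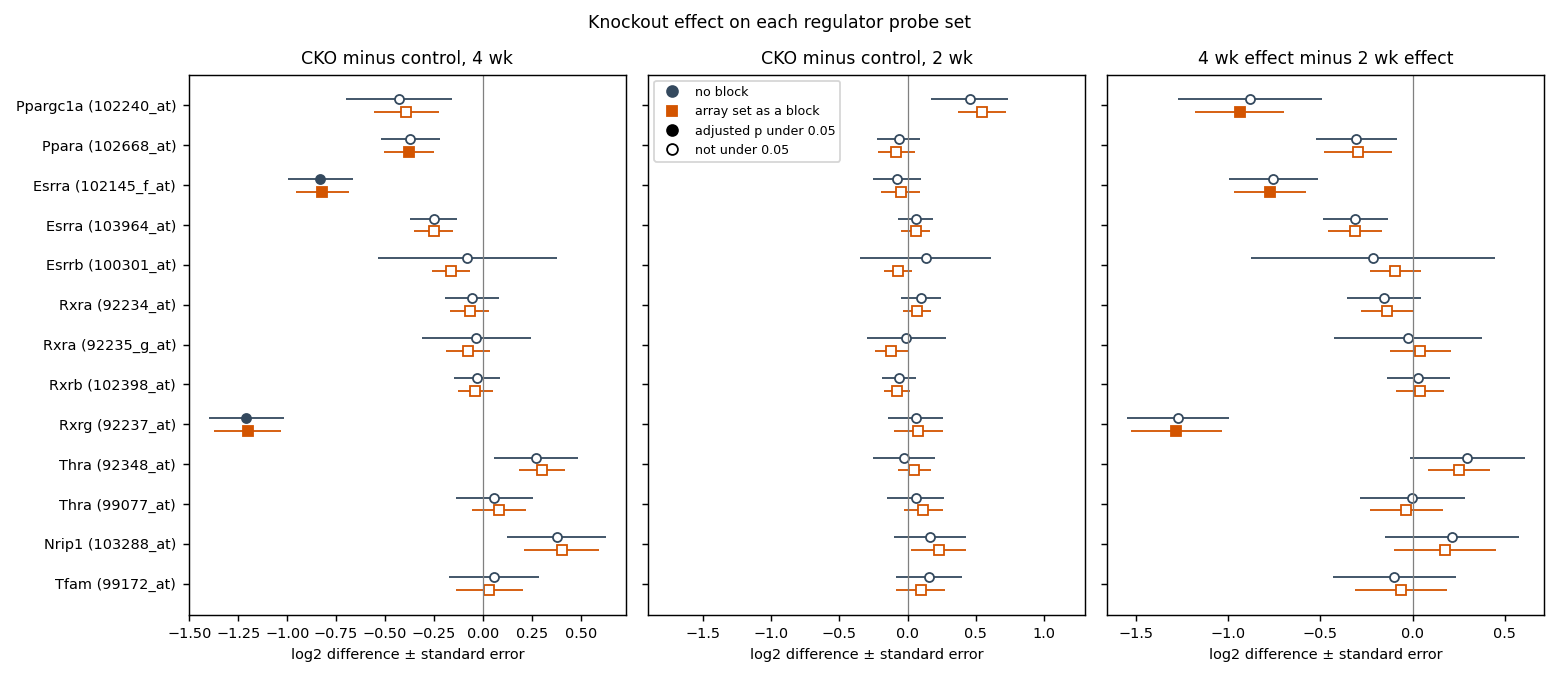
Difference between CKO and control hearts for each regulator probe set, in log2 with standard errors, at 4 weeks (left), at 2 weeks (middle) and as the 4 week minus the 2 week difference (right), without a block (dark circles) and with array set as block (orange squares), filled where the adjusted p lay under 0.05. At 4 weeks Rxrg stands at -1.21 and Esrra f_at at -0.83 without the block, and at 2 weeks no symbol is filled.

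The difference between the 2 ages was tested directly as the knockout effect at 4 weeks minus that at 2 weeks. Without the block 0 of the 13 probe sets were called, where 0.258% of all probe sets were called with a more negative effect at 4 weeks. At an unadjusted p under 0.05 there were 3 of the 13, where 6.88% of all probe sets passed in either direction. With the block the same 3 were called, Rxrg, Esrra f_at and Ppargc1a, all more negative at 4 weeks, where 2.21% of all probe sets were. For Rxrg the change in effect was -1.27 ± 0.28 (adjusted p = 0.0666) without and -1.28 ± 0.25 (adjusted p = 0.00536) with the block. It was -1.18 within set 1 and -1.25 within set 2. For Esrra f_at it was -0.75 ± 0.24 (adjusted p = 0.282) and -0.77 ± 0.20 (adjusted p = 0.0296), and for Ppargc1a -0.88 ± 0.39 (adjusted p = 0.668) and -0.94 ± 0.24 (adjusted p = 0.0311). The Ppargc1a difference between CKO and control hearts was positive at 2 weeks and negative at 4 weeks, and was called at neither age. Leaving out any 1 array under the block kept the Rxrg call. It kept the Ppargc1a call for 9 of 15 arrays, with an adjusted p of up to 0.116, and the Esrra call for 7 of 15, with an adjusted p of up to 0.0995. With inferred sex as a further block Esrra missed the threshold (-0.64, adjusted p = 0.0612).

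The ages were then compared within each genotype. Of the CKO arrays, 4 of 5 at 4 weeks and 1 of 4 at 2 weeks read female. Age and sex are thus partly mixed in CKO hearts. In CKO hearts Ppargc1a was lower at 4 than at 2 weeks, with a difference of -1.15 ± 0.25 (2.22-fold; adjusted p = 0.0191), and of -1.21 ± 0.15 with the block (adjusted p = 4.99e-05). Its 5 CKO arrays at 4 weeks read at most 75.6 and its 4 CKO arrays at 2 weeks at least 109. This was the 1 probe set of 13 called in CKO hearts without the block, where 1.27% of all probe sets were called lower. The call was lost without CKO 2 wk replicate 1 or CKO 2 wk replicate 2, at an adjusted p of up to 0.0686. It was also lost under quantile normalization (adjusted p = 0.0772), median scaling (adjusted p = 0.0569) and replicate number as a block (adjusted p = 0.102). With the block 2 were called, where 5.74% of all probe sets were, the second being Esrra f_at at -0.48 ± 0.12 (adjusted p = 0.0149; 0.0752 with inferred sex as a further block). Its 5 CKO arrays at 4 weeks read at most 355 and its 4 at 2 weeks at least 404. These were the 2 probe sets of 13 whose CKO arrays at 4 weeks all lay below those at 2 weeks, where 2.96% of all probe sets did. Rxrg had -0.37 ± 0.18 in this comparison (adjusted p = 0.418), and its groups overlapped, with 134 the highest at 4 weeks and 131 the lowest at 2 weeks.

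In control hearts Rxrg was the regulator with the largest difference between ages. It averaged 288 ± 83.6 at 4 weeks and 144 ± 19.0 at 2 weeks (SD, n = 3 each). The difference was 0.90 ± 0.21, not called without the block (adjusted p = 0.128), and Rxrg rose by 0.90 ± 0.19 with it (adjusted p = 0.0162). No probe set of the 13 was called higher at 4 weeks without the block by limma, where 0.282% of all probe sets were. At an unadjusted p under 0.05 there was 1 of the 13, where 5.41% of all probe sets passed in either direction. With the block 1 was called, where 1.58% of all probe sets were. That call was lost without control 4 wk replicate 2 or 3, or control 2 wk replicate 1 or 3, at an adjusted p of up to 0.110. Of the 13, 2 had every control array at 4 weeks above every one at 2 weeks, Rxrg and the Esrra probe set without the f_at suffix, where 4.49% of all probe sets did. The opposite held for 1, the first Thra probe set, where 4.21% of all probe sets had every control array at 4 weeks below. It read 448, 499.5 and 506 in control hearts at 4 weeks and 741, 758 and 526 in control hearts at 2 weeks, a difference of -0.45 ± 0.24 (adjusted p = 1 without and 0.0808 with the block). Over the 4 groups the Rxrg means were 113 ± 15.7 in CKO hearts at 4 weeks (n = 5), 288 ± 83.6 in control hearts at 4 weeks (n = 3), 151 ± 22.1 in CKO hearts at 2 weeks (n = 4) and 144 ± 19.0 in control hearts at 2 weeks (n = 3; all SD). The control hearts at 4 weeks thus stood apart above, while both groups at 2 weeks overlapped each other and the CKO group at 2 weeks overlapped the CKO group at 4 weeks. Ppargc1a averaged 62.0 ± 14.5 in CKO hearts at 4 weeks (n = 5), 88.1 ± 14.7 in control hearts at 4 weeks (n = 3), 158 ± 38.2 in CKO hearts at 2 weeks (n = 4) and 117 ± 56.0 in control hearts at 2 weeks (n = 3). The 3 control arrays at 2 weeks ran from 61.3 to 173 and overlapped each of the other groups.

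**Figure D3:**
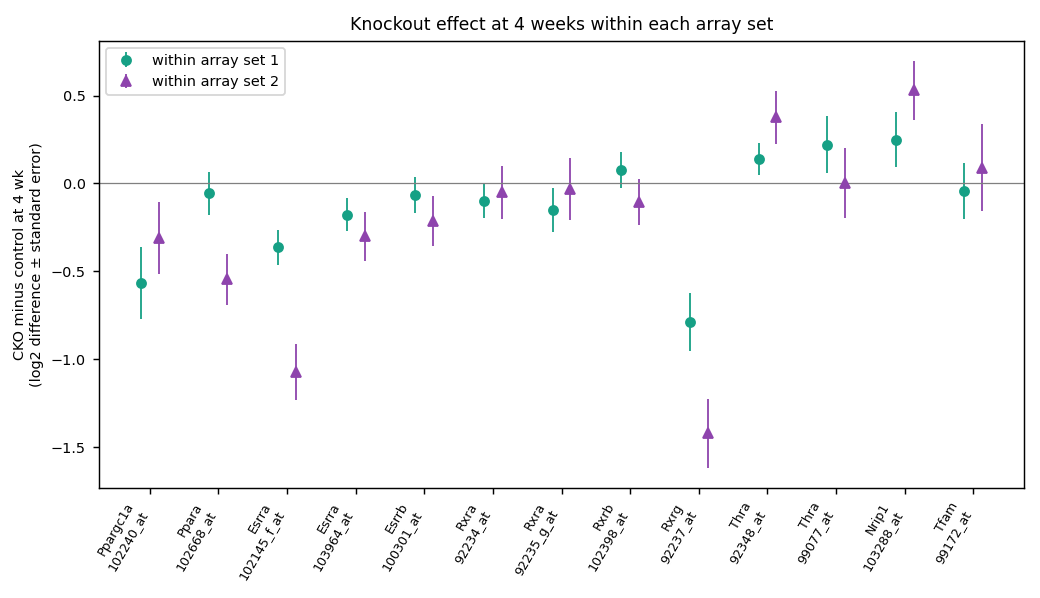
CKO minus control difference at 4 weeks (log2, with standard errors) for each regulator probe set, fitted within array set 1 (green circles, 2 CKO and 1 control array) and within array set 2 (purple triangles, 3 CKO and 2 control arrays). Rxrg is lower in both sets, at -0.79 and -1.42, while Ppara is -0.06 in set 1 and -0.55 in set 2. By inferred sex all these set 1 arrays are female, and in set 2 the control arrays are male and most CKO arrays female.

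The genes on which these regulators act were taken from lists chosen by function, with each gene represented by its probe set of the highest mean. The lists were chosen with earlier results of these data known, so their counts beside those of all genes are a description. Of 8251 genes, 2.93% were called lower and 4.40% higher in CKO hearts at 4 weeks, and 8.74% and 16.4% with array set as block. The median over all genes was 0.08. Of 23 measured PPAR, estrogen-related receptor and PGC-1 targets of fatty acid use (30 listed), 10 fell and 0 rose, with a median of -0.57, and 17 fell with the block. Cpt2, which re-forms acyl-CoA inside mitochondria, averaged 943 ± 137 in CKO hearts (SD, n = 5) and 2120.5 ± 287 in control hearts (SD, n = 3) and fell by 1.16 ± 0.13. Acaa2, the thiolase of mitochondrial beta-oxidation, averaged 3283 ± 549.6 in CKO and 6613 ± 435 in control hearts. The acylcarnitine carrier gene Slc25a20 averaged 761 ± 31.7 in CKO and 1412 ± 172 in control hearts. Adjusted p-values of these 3 were 0.000308 or lower. Pdk4, which blocks glucose oxidation and is a PPAR target in muscle, fell by 0.82 ± 0.23 (adjusted p = 0.0472), and the fatty acid transporter gene Cd36 by 0.93 ± 0.25 (adjusted p = 0.0398). Pdk4 and Cd36 were named after their values were seen. The 6 genes of the list not called with the block were Acot1, Plin2, Ucp3, Vldlr, Angptl4 and Acadvl. Their differences without the block were -0.33, -0.28, -0.11, -0.12, 0.02 and -0.004 in that order, and were not called either. The change of effect with age was called for 3 of the 23 genes, and for 12 with the block, all more negative at 4 weeks, where 0.291% and 2.80% of all genes were.

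The targets of respiration followed. Of 18 measured genes (22 listed) 10 fell and 0 rose, with a median of -0.46, and 16 fell with the block. Mb, which encodes the oxygen store myoglobin, averaged 5380 ± 323 in CKO hearts (SD, n = 5) and 7707 ± 210.1 in control hearts (SD, n = 3). The ATP/ADP carrier gene Slc25a4 averaged 5735 ± 126 in CKO and 8044 ± 369 in control hearts, and Cox7a1, of complex IV, fell by 0.62 ± 0.10 (adjusted p = 0.00179). The change of effect with age was called for 2 of the 18 genes, and for 12 with the block. All were more negative at 4 weeks, where 0.291% and 2.80% of all genes were.

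Of 10 measured heart genes that respond to thyroid hormone (14 listed) 5 fell and 0 rose, and with the block 5 fell and 1 rose. Ryr2, the calcium release channel of the sarcoplasmic reticulum, averaged 1240.1 ± 277 in CKO hearts (SD, n = 5) and 2795 ± 216 in control hearts (SD, n = 3). Kcnd2, a potassium channel gene, fell by 1.26 ± 0.23 and the calcium pump gene Atp2a2 by 0.41 ± 0.08. The gene that rose with the block was Dio2, the deiodinase that activates thyroid hormone (adjusted p = 0.000178). Its difference was 1.25 ± 0.36 without the block (adjusted p = 0.0583). Ryr2 and Myh6 are on the cardiac muscle marker list too, of which 4 of 8 fell without and 5 of 8 with the block, and all 10 fibroblast markers rose. Of 6 smooth muscle and pericyte markers 2 rose (3 with the block), and they summed to 5448 to 8946 in CKO hearts and 3854 to 4569 in control hearts. Of 6 skeletal muscle markers 1 rose (Myl1; with the block 2 rose and 1 fell), and they summed to 7703 to 9248 in CKO hearts and 2815 to 5325 in control hearts. The 3 erythroid markers summed to 7501 to 13440.4 in CKO hearts and 6002 to 7397 in control hearts, and 1 rose with the block. Of 9 endothelial markers 1 rose (with the block 2 rose and 1 fell), and of 8 macrophage markers limma called 0 without and with the block, with 0 at an unadjusted p under 0.05. With the block 1 of 5 lymphocyte and 1 of 4 adipocyte markers rose. Of all genes 4.40% rose and 2.93% fell without the block, and 16.4% and 8.74% with it. Summed levels of the endothelial, macrophage, lymphocyte, adipocyte and lung markers overlapped between CKO and control hearts at 4 weeks. The part of these shifts in the lower values of Rxrg, Esrra and their targets was not tested.

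Partners and upstream controllers of the regulators were called at about the rate of all genes, of which 7.33% were called in either direction without and 25.1% with the block. Of 19 other nuclear receptors (25 listed), the clock repressor gene Nr1d2 fell by 1.25 ± 0.27 (adjusted p = 0.0105) and the immediate early gene Nr4a1 rose by 0.67 ± 0.18 (adjusted p = 0.0394). Of 18 coregulators (23 listed) 1 fell, Lpin1, a phosphatidate phosphatase that also coactivates PPARα, with 266 ± 41.5 in CKO hearts (SD, n = 5) and 549 ± 138 in control hearts (SD, n = 3; -0.98 ± 0.20, adjusted p = 0.00801). With the block 2 nuclear receptors rose and 2 fell, and 3 coregulators fell. Of 11 kinases, phosphatases and transcription factors upstream of PGC-1 (14 listed) limma called 0 without the block and 2 had an unadjusted p under 0.05. With the block Camk2d rose (0.63, adjusted p = 0.000588) and 2 fell, among them the transcription factor gene Mef2d (-0.63, adjusted p = 0.000282). Of 8 genes that transcribe and maintain mitochondrial DNA beside Tfam (14 listed) limma called 0 without the block, with 1 at an unadjusted p under 0.05. With the block Polg, the mitochondrial DNA polymerase, rose by 0.43 and Tfb2m, a mitochondrial transcription factor, fell by 0.49. At 2 weeks limma called 0 genes of these 7 lists with or without the block. At an unadjusted p under 0.05 the counts at 2 weeks were at most 1 per list without and 3 with the block (3 of the 10 thyroid hormone genes), beside the 1.04% and 5.02% of all probe sets given above.

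**Figure D4:**
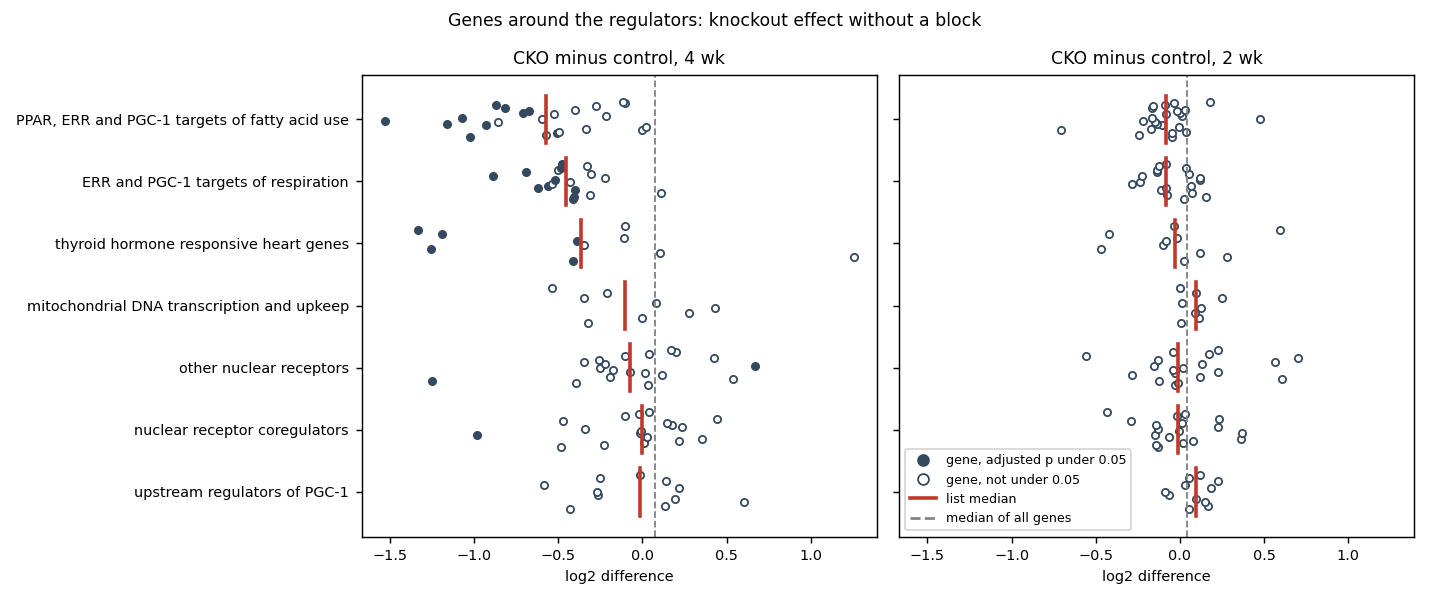
CKO minus control difference (log2) of each measured gene of the 7 lists at 4 weeks (left) and at 2 weeks (right) without a block, with filled points for genes called, red bars for list medians and a dashed line for the median of all genes. At 4 weeks the medians of the fatty acid and respiration targets are -0.57 and -0.46, and no point is filled at 2 weeks.

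Likeness of pattern was measured as Pearson's r over the 15 arrays after the mean of each array set was subtracted, as a description, since the arrays share groups and sets. The genes most like Rxrg were Pgap2 (0.94), Pxmp2 (0.94) and Ctage5 (0.93). Those most like Ppargc1a were Retsat (0.90), Elovl5 (0.88) and Myl3 (0.86). Those most like Ppara were Lifr (0.92), Npc1 (0.90) and Sucla2 (0.88), and those most like the Esrra probe set without the suffix were Kcnk3 (0.93), Ndufaf1 (0.91) and Gfm1 (0.89). Nrip1 was most like Ctsb (0.95) and the first Thra probe set most like Ddx17 (0.94). Among the 13 probe sets themselves, Rxrg and Esrra f_at had r = 0.87, Ppara and Esrra f_at r = 0.81 and the 2 Esrra probe sets r = 0.72, while Rxrg and the first Thra probe set had r = -0.55.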

How the data were processed

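RNA of mouse hearts was measured on 15 one-colour short-oligonucleotide arrays. The deposited value table holds the authors' processed intensity for each probe set, on a linear scale with a lowest value of 0.95. How the authors normalized it was not given in the sources used here. Array medians lay between 173.7 and 216.8, and the number of arrays limits the precision. Genes were named through the platform annotation, which gave 10833 probe sets 1 symbol, 396 several and 1193 none, and probe sets with several symbols name no gene.

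limma 3.58.1 (R 4.3.3) fitted log2(intensity + 16) over all 12422 probe sets and 4 groups with a trended variance, and p-values were adjusted by Benjamini-Hochberg over all of them, for 5 comparisons. A second fit had the array set as a block. The sets were found from the correlation between arrays and are not a batch that the labels record. Per-gene results took the probe set with the highest mean. The fit was run on simulated data, with changes added to 200 probe sets in CKO hearts at 4 weeks. The simulation held array-set effects but no effect of sex, and its outcome is not given here. Of each list, the 3 genes with the smallest p at 4 weeks were named, and exceptions are stated. For each regulator up to 3 most alike genes were chosen. The regulators, lists and tests were chosen with earlier results of these data known. Alternatives were array set, inferred sex, quantile or median scaling, pseudocounts of 1 and 64, a filter that leaves out the dimmest 40%, 1 probe set per gene, no trend, array weights, only the compared arrays, replicate number, and leaving out each array. Deviations of CKO and control arrays of the same number correlated at 0.586 to 0.845 in all 3 pairs at 2 weeks. At 4 weeks they correlated at 0.793, -0.519 and 0.473. Each pair at 2 weeks shares an array set, and the pair at -0.519 is the 1 split across array sets. Number and array set thus cannot be told apart, and the check cannot show whether arrays of the same number are paired.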

Additional observations from a re-analysis of the deposited data

Results flagged for a closer look

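Of 26 groups of 4 or 5 arrays among the regulator probe sets, 1 held an array far from the others, where chance gives about 1 in 20. The Esrra probe set with the suffix f_at read 481 on 1 CKO array at 2 weeks, and the gap to the next array was 0.92 of the range of that group.

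With the array set as a block, 3 knockout effects differed between the ages by the interaction test. The effect at 4 weeks minus that at 2 weeks was -1.28 for Rxrg (adjusted p = 0.00536), -0.77 for Esrra f_at (adjusted p = 0.0296) and -0.94 for Ppargc1a (adjusted p = 0.0311). Without the block the same 3 missed the threshold, with adjusted p-values of 0.0666, 0.282 and 0.668 in that order.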

How the results depend on the processing

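Counts of calls depended on the array-set block. For CKO against control at 4 weeks 779 probe sets were called (2 regulators), against 2760 (3) with the block, 2015 within set 2, 2337 with set and sex, 2703 (4) with block and quantile normalization, 2724 with block and a pseudocount of 1, 3383 (5) with array weights, 462 (1) with only the compared arrays and 372 (1) with the replicate block. Regulators called were 0 within set 1 and 0 with 1 probe set per gene and the dimmest left out, a filter that leaves out Rxrg and takes the other Esrra probe set. At 2 weeks 1 probe set was called, against 7 with the block, 0 within set 1, 5 within set 2, 7 with set and sex, 7 with block and quantile, 8 with block and pseudocount 1, and 5050 (4 regulators) with weights. The change of effect gave 66 (0 regulators), against 683 (3), 23, 337 (2), 499 (2), 764 (3), 649 (3) and 3119 (5) in that order of settings, 12 with median scaling, 30 without trend and 4 with the replicate block, and the dim filter called 1 regulator. Between ages in CKO hearts 414 (1 regulator) were called, against 1771 (2), 905, 1141 (2), 1520, 1858 (3), 1744 (2) and 5834 (8), 222 with only the compared arrays and 189 with the replicate block. Quantile normalization, median scaling, the dim filter, 1 probe set per gene and the replicate block each called 0 regulators there. The dim filter and the fit with 1 probe set per gene leave out Ppargc1a, so they do not test its call. In control hearts 42 (0 regulators) were called, against 369 (1), 4, 331 (1), 464 (1), 407 (1), 361 (1) and 1466 (3), 26 with median scaling, 0 with only the compared arrays and 14 with the replicate block. Array weights (0.234 to 9.06) did not converge, and under them the Rxra g_at probe set at 2 weeks turned to 0.51. Leaving out 1 array gave 342 to 787 (1 to 2 regulators) at 4 weeks, 1 to 2 at 2 weeks, 17 to 103 (0 to 2) for the change of effect, 253 to 443 (0 to 1) in CKO and 8 to 70 (0 to 1) in control hearts. With the block the ranges were 2066 to 2832 (2 to 4), 3 to 9, 396 to 910 (1 to 3), 1332 to 1781 (1 to 3) and 147 to 550 (0 to 2). The cause was not tested. Each control group has 1 array in set 1, assumed there to vary like the others. The replicate block left 1 probe set and 0 regulators called at 2 weeks, as without it. Under it Esrra f_at missed the threshold at 4 weeks (adjusted p = 0.0532). Dim probe sets (Ppargc1a, Tfam, the second Thra probe set) failed the filter, and 10 of 13 passed.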

Other observations

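The remaining regulators had these most alike genes, by Pearson's r over the 15 arrays after centring on the array set, given as values with no test. Esrrb was most like Hcn3 (0.89), the first Rxra probe set most like Etv4 (0.84), Rxrb most like Alox12e (0.79) and Tfam most like Klk1b8 (0.86). Without the centring these r were 0.72, 0.89, 0.22 and 0.13 in that order, so the last pairs were alike only after it.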
